A study of Rattus norvegicus with 14 samples.

Results

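Nr4a1, Etv1 and Cited2 are 3 transcription regulators chosen by their RPM values in cAMP-treated and control Schwann cells of these data, and are described here by their transcription start sites (TSSs). All TSSs carrying one of the 3 gene symbols were taken, which gave 10 of the 4993 TSSs analysed and 3 of the 2993 genes. Nr4a1 holds 6 of them, Etv1 holds 3 and Cited2 holds 1, and all 10 lie on the plus strand of the rat genome (rn5). Because the cAMP comparison chose the genes, their values in it are given as a description without a test. The comparison of S16 cells with and without SOX10, which the choice did not use, was tested, although earlier results of these data were known.

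Transcript 5′ ends were sequenced by Tn5Prime, in which an adapter is added by template switching at the 5′ end of each RNA, so that a cluster of read starts marks a TSS. Its reads measure the abundance of the RNA that begins there, and not how often transcription began. The 14 libraries fall into 5 groups. Sciatic nerve was sampled as 2 independent nerves of wild-type adult rats, aged 6 to 9 months, with 1 library per nerve. Primary rat Schwann cells (wild type) were expanded in medium with neuregulin and forskolin and were then deprived of both, and 3 independent populations received CPT-cAMP, a cell-permeable cAMP analogue, at 250 μM for 3 days, while 3 received the vehicle. Controls are listed as kept for 4 days in the same medium with 5% serum. In the protocol of the paper, CPT-cAMP and vehicle were first given on the same day. Collection is also described for a single day. S16 is an immortalized rat Schwann cell line that expresses SOX10, a transcription factor needed throughout the Schwann cell lineage, and it was sampled as 2 RNA samples of the unmodified parental line (wild type) and as 4 ΔSOX10 clones, named 1-1, 1-2, 2-1 and 2-2, whose first coding Sox10 exon carries frameshifts made with Cas9. Parental samples share 1 line, and each ΔSOX10 library is 1 clone. The paper made the 4 clones with 2 guide RNAs, and the labels do not say which clone had which guide. Values are in RPM, the reads of a TSS per 1000000 reads of its library, in libraries of 29895599 to 79940274 reads. A count of 3 reads, used as the limit that a count of 0 allows, stood for 0.0375 to 0.1 RPM, and covers counting error only.

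Cyclic AMP activates protein kinase A, which phosphorylates the transcription factor CREB at cAMP response elements (CREs) in promoters. In Schwann cells, cAMP analogues stand in for axonal signals and raise myelin genes in culture. Nr4a1 (also Nur77) is an orphan nuclear receptor and a classical immediate early gene, Etv1 is an ETS-family transcription factor of the PEA3 subgroup, and Cited2 is a co-regulator that binds CBP and its paralogue and limits hypoxia-inducible transcription. All 3 gene products act in the nucleus, and none is a structural myelin protein.

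Because the members were chosen as cAMP-responsive, the promoters in which a CRE would be looked for are shown. RefSeq promoters on build GRCr8 were matched for 3 of 3 genes by symbol, and the 250 bases before each annotated start are printed 5′ to 3′ with every match to a searched motif in capitals. Motifs were searched on both strands: the CRE TGACGTCA and its core TGACG (which every CRE contains), the SOX cores ACAAAG and ACAATG, the GC box GGGCGG and the TATA box TATAAA. The genomic windows are chr7:134259888-134260137 for Nr4a1, chr6:61317179-61317428 for Etv1 and chr1:14132053-14132302 for Cited2, each on the plus strand.
Nr4a1: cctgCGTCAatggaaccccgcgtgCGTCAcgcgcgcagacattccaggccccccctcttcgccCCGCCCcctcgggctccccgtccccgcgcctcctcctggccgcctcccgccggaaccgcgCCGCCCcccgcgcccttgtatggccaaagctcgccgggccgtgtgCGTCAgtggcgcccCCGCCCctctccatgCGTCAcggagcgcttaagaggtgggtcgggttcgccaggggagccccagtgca
Etv1: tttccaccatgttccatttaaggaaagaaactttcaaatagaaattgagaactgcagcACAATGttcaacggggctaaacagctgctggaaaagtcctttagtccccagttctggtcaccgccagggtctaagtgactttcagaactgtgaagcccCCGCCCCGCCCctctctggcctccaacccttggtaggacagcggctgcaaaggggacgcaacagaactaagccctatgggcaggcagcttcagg
Cited2: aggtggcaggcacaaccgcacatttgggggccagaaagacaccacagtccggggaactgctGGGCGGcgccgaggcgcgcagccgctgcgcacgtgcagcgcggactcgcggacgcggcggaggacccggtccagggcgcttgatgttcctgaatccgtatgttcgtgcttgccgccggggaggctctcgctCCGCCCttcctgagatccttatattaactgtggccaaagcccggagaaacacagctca

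The Nr4a1 window held 4 CRE cores, all on the minus strand, which begin 246, 226, 82 and 53 bp before the start. At least 1 CRE core was found in 18.2% of the 33469 promoter windows in the table, and 3 or more in 0.813% of them. Neither the Etv1 nor the Cited2 window held a CRE core, and none of the 3 held the full CRE, which occurred in 1.59% of all windows. GC boxes were found 3 times in Nr4a1 and 2 times each in Etv1, where the 2 overlap by 1 base, and in Cited2, beside 30.5% of all windows with at least 1. Etv1 alone held a SOX core, 1 copy of ACAATG that begins 192 bp before the start, a motif found in 11.1% of all windows, while ACAAAG (16.3% of windows) and the TATA box (12.9%) were found in none of the 3. The windows were 74.8% G and C in Nr4a1, 65.2% in Cited2 and 52.4% in Etv1, and the median of all windows was 51.2%. A match is a run of letters and not a bound site, and which of the rn5 TSSs below each GRCr8 start belongs to was not determined.

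In rn5, Cited2 TSS 1 spans chr1:14515616-14515624 and is 9 bp wide. Etv1 TSS 1 is at chr6:68062047-68062102 and TSS 2 begins 829 bp downstream, whereas TSS 3, at chr6:68143009-68143125, begins 80962 bp downstream of TSS 1. Nr4a1 TSS 1 is at chr7:140713127-140713195 and TSS 2 at chr7:140718023-140718154, 4896 bp downstream, followed by TSS 3 at 5678 bp, TSS 4 at 5941 bp (chr7:140719068-140719126), TSS 5 at 6222 bp and TSS 6 at 7296 bp from TSS 1. Exons, introns and UTRs of rn5 were not analysed here. TSSs entered the deposited table through H3K4me3, a histone mark of active promoters, and SOX10 peaks of sciatic nerve, and other TSSs of these genes were not analysed here.

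The table pairs each TSS with an H3K4me3 and a SOX10 peak, and 6 of the 10 TSSs overlapped the H3K4me3 peak listed for them, beside 88.4% of all 4993 TSSs. Nr4a1 TSSs 1 to 3 are listed with a peak of 5525 bp, of which TSS 2 lies 177 bp and TSS 3 lies 959 bp outside, and TSSs 4 to 6 with a second peak of 1417 bp. That second peak also covers TSS 3 and part of TSS 2, so that 8 of the 10 TSSs overlapped some H3K4me3 peak of the table, beside 88.5% of all TSSs. Cited2 TSS 1 lies within a peak of 3908 bp and Etv1 TSSs 1 and 2 within one of 3999 bp. By contrast, the H3K4me3 peak listed with Etv1 TSS 3 is 189 bp wide, narrower than the peaks of nearly all candidate TSSs (0.26% were narrower), and begins 22 bp past the TSS. Etv1 TSS 3 was also the only 1 of the 10 that overlapped its SOX10 peak, beside 51.7% of all TSSs, while the others lay between 328 bp (Nr4a1 TSS 1) and 6006 bp (Nr4a1 TSS 3) from theirs. Nr4a1 TSS 2 is listed with a SOX10 peak 5224 bp away but lies inside the one of 1000 bp that is listed with TSSs 4 to 6. Counting any SOX10 peak of the table, 2 of the 10 TSSs (Nr4a1 TSS 2 and Etv1 TSS 3) overlapped one, beside 51.7% of all TSSs.

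**Figure D1:**
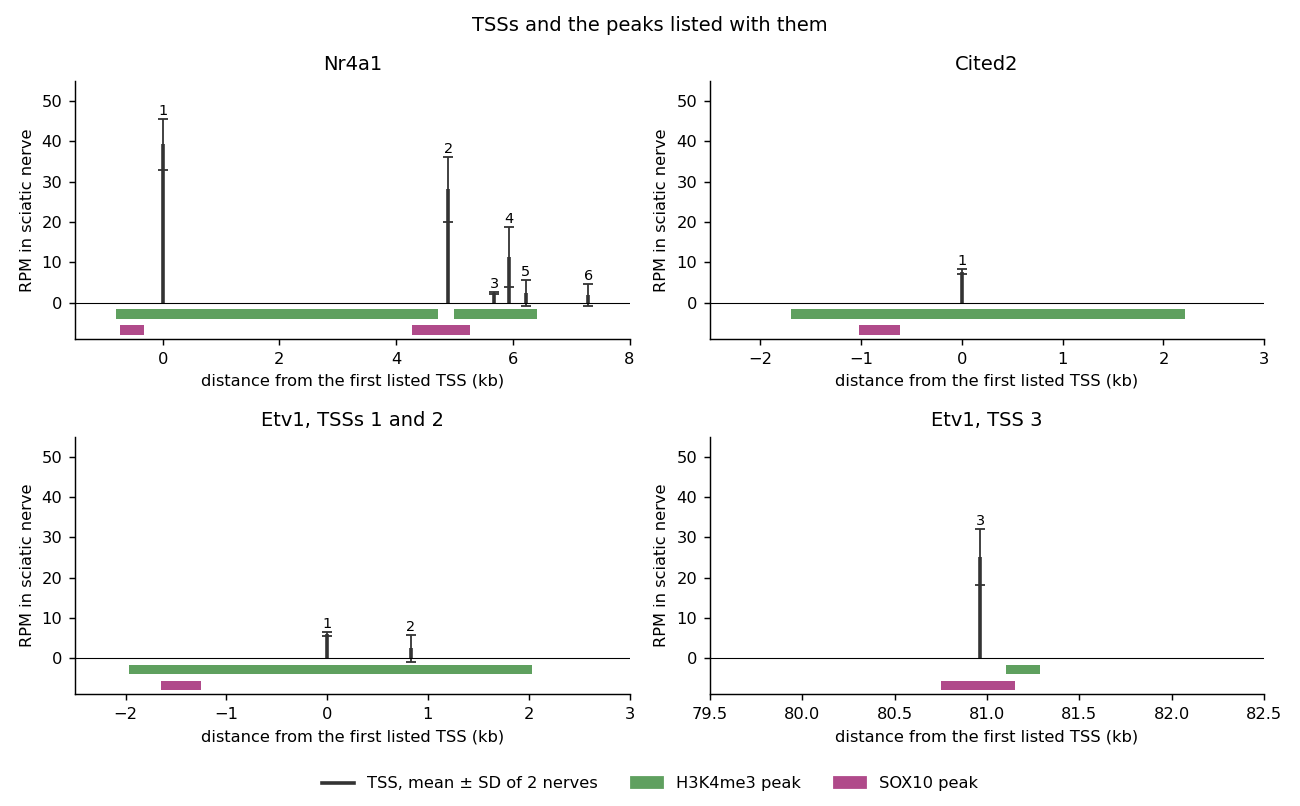
Positions of the 10 TSSs in kb from the first listed TSS of each gene, with the mean RPM in sciatic nerve (height of each line, bar SD, 2 nerves) and the H3K4me3 and SOX10 peaks listed with them as blocks below zero. Nr4a1 TSSs 1 and 2 are 4896 bp apart, and Etv1 TSS 3, the tallest of its gene, lies 80962 bp from TSS 1 beside the narrow H3K4me3 peak. The SOX10 block between 4 and 6 kb covers Nr4a1 TSS 2.

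The order of the 5 groups differed between the genes. Nr4a1 summed over its TSSs was highest in cAMP-treated cells, at 253.6 ± 13.3 RPM (SD, n = 3), followed by sciatic nerve (85.2 ± 11.4, n = 2), control cells (57.1 ± 2.45, n = 3), parental S16 cells (47.4 ± 3.55, n = 2) and ΔSOX10 cells (5.88 ± 4.31, n = 4). No 2 neighbours in that order shared values. Etv1 was highest in sciatic nerve at 33.6 ± 11 RPM, where the nerves (41.3 and 25.8) overlapped the cAMP libraries (20.1 ± 9.55, n = 3), and it was close to 0 in controls and at 0 in S16 cells. Cited2 was highest in ΔSOX10 cells at 573.9 ± 140 RPM, whose range held the control libraries, then in control (468 ± 15), parental S16 (76.8 ± 4.45), cAMP (20 ± 6.28) and sciatic nerve (7.7 ± 0.574). Nerve and S16 libraries were sequenced on a HiSeq and primary cell libraries on a NovaSeq, so between these models the instrument and the cells cannot be told apart, while both comparisons stay within 1 instrument.

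**Figure D2:**
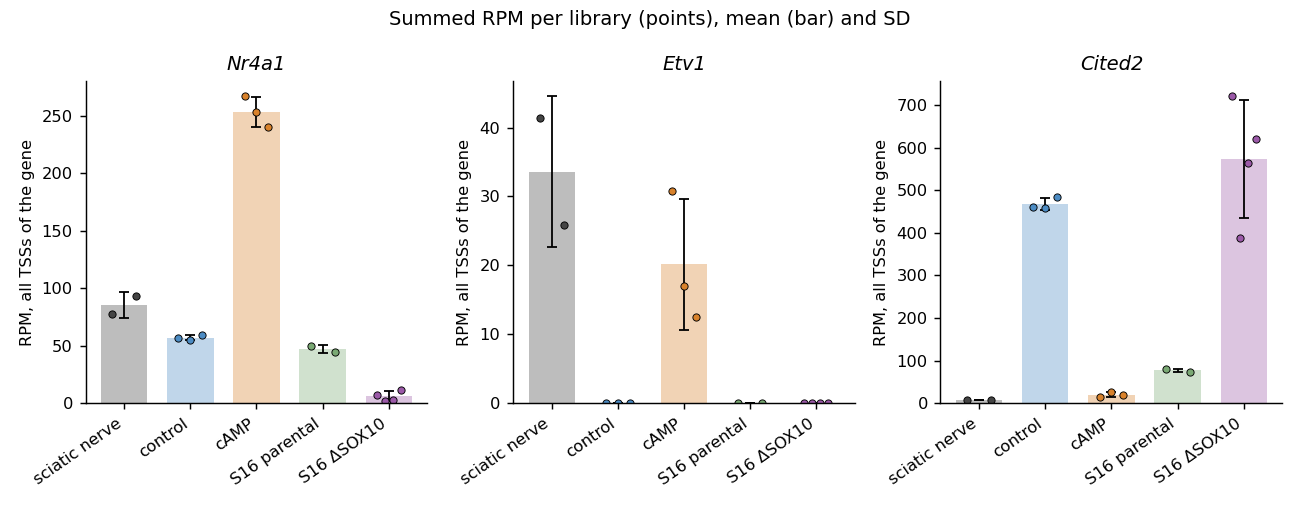
Summed RPM of Nr4a1, Etv1 and Cited2 in each of the 14 libraries (points), with the mean (bar from 0) and SD of each group, on linear axes. Nr4a1 sits between 240.5 and 267 in the cAMP libraries and at 2.06 to 11.3 in the 4 ΔSOX10 clones, while Cited2 is between 388 and 721 in controls and ΔSOX10 clones and between 7.29 and 26.7 in cAMP and nerve.

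Sciatic nerve holds Schwann cells with other cell types, and the 9 of 10 Schwann cell markers with a TSS here (Sox10, S100b, Mbp, Pmp22, Ngfr, Egr2, Erbb3, Prx and Mag) summed to between 53920 and 54530 RPM in nerve, 5260 and 5497 in control, 7236 and 8447 in cAMP, 8064 and 8201 in parental S16 and 144.8 and 397.1 in ΔSOX10 libraries. Pmp22 and Mbp made up most of the nerve sum, with means of 43960 and 8428 RPM there and 472 and 218.3 RPM in control. Not all other markers followed the sum. Means were higher in control than in nerve for Ngfr (2622 and 7.81 RPM), Sox10 (141.8 and 45.5) and Erbb3 (49.2 and 10.65). S100b was at 1883 and 1711 RPM. Egr2 (0.016 and 24.9) and Mag (0.0051 and 24.6) were lower in control. Prx was at 0 in control and in all S16 libraries. Of 8 fibroblast markers, Col1a1 and Pdgfra had a TSS, with sums of 134.1 to 137.8 in nerve, 803 to 909.2 in control, 369.7 to 466 in cAMP, 2255 to 2829 in parental S16 and 2971 to 5302 in ΔSOX10 cells, nearly all of it Col1a1. Pdgfra was at 0 in controls. Csf1r, the macrophage marker with a TSS (1 of 7), ranged from 1.07 to 4.82 RPM in nerve and was at 0 in the primary cells and parental S16. Pdgfrb (1 of 5 pericyte and smooth muscle markers) ranged from 30.6 to 54.8 in nerve, 0.779 to 1.91 in control and 22.4 to 29.6 in cAMP libraries. Itgb4 (1 of 4 perineurial markers) ranged from 51.1 to 51.5 in nerve, 0.0459 to 2.87 in control and 3.54 to 5.09 in cAMP libraries. Endothelial and adipocyte markers had no TSS in the table. In such bulk RNA, fewer cells of a type and less RNA per cell cannot be told apart, and the part of these differences in the results below was not tested.

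Treatment with cAMP separated the 3 genes by direction, Nr4a1 and Etv1 being higher and Cited2 lower. The groups did not overlap in 6 of the 10 TSSs, which is fixed in part by how the genes were chosen, and nothing is read from it. Over all 4119 TSSs tested in this comparison, 36.6% had groups without overlap, and limma called 12.9% higher and 11% lower at an adjusted p under 0.05. A total of 8 of the 10 passed the filter of more than 1 RPM in at least 2 of the 6 libraries, and Nr4a1 TSSs 5 and 6 did not.

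Nr4a1 TSS 1 was read at 12.9, 14.6 and 11.9 RPM in control 1 to 3 and at 142.2, 110.5 and 104.5 RPM in cAMP 1 to 3. The lowest treated library was far above the highest control, and the mean went from 13.1 ± 1.33 to 119 ± 20.3 RPM, 9.06-fold. TSS 2 gave 7.81, 16.2 and 12.5 RPM in the controls and 79.1, 79.6 and 93.5 RPM in the treated cells. Here too the groups stood apart, with 12.2 ± 4.21 and 84.1 ± 8.13 RPM, 6.91-fold. TSS 3, a 6-bp cluster, had no read in any control library and 8.41, 5.28 and 10.2 RPM with cAMP. Set against 3 reads per control library, it was 153-fold higher. That figure allows for counting error only and is not a firm lower bound.

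Nr4a1 TSS 4 behaved otherwise. Its controls were 36.1, 22 and 35.2 RPM and its treated libraries 37.3, 57.7 and 32.4 RPM, so that the groups overlapped and the means of 31.1 ± 7.89 and 42.4 ± 13.4 RPM stood 1.36-fold apart. TSS 5 was at 0 in all 6 libraries. TSS 6 had 2 RPM in control 2, no read in the other controls and at most 11 reads in a cAMP library, so that its mean rests on 1 library.

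As a share of the Nr4a1 reads, TSS 4 held 63.5, 40.2 and 59.1% in the controls and 14, 22.8 and 13.5% with cAMP, and TSS 1 held 22.8, 26.6 and 20% against 53.2, 43.6 and 43.4%. TSS 4 was thus the main start in each control library and TSS 1 the main start in each treated library. Sciatic nerve had 45.1 and 46.8% at TSS 1, 43.8 and 24% at TSS 2, and 7.89 and 17.8% at TSS 4. In both nerves TSS 1 held the largest share, as in the treated cells and in every S16 library. In the first nerve TSS 2 was close to it, with 1010 reads beside 1042. TSSs 5 and 6 were seen in only 1 of the 2 nerves, with 176 and 148 reads there and none in the other. No molecular identifiers were named for these libraries, and PCR copies of 1 molecule are counted as separate reads.

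**Figure D3:**
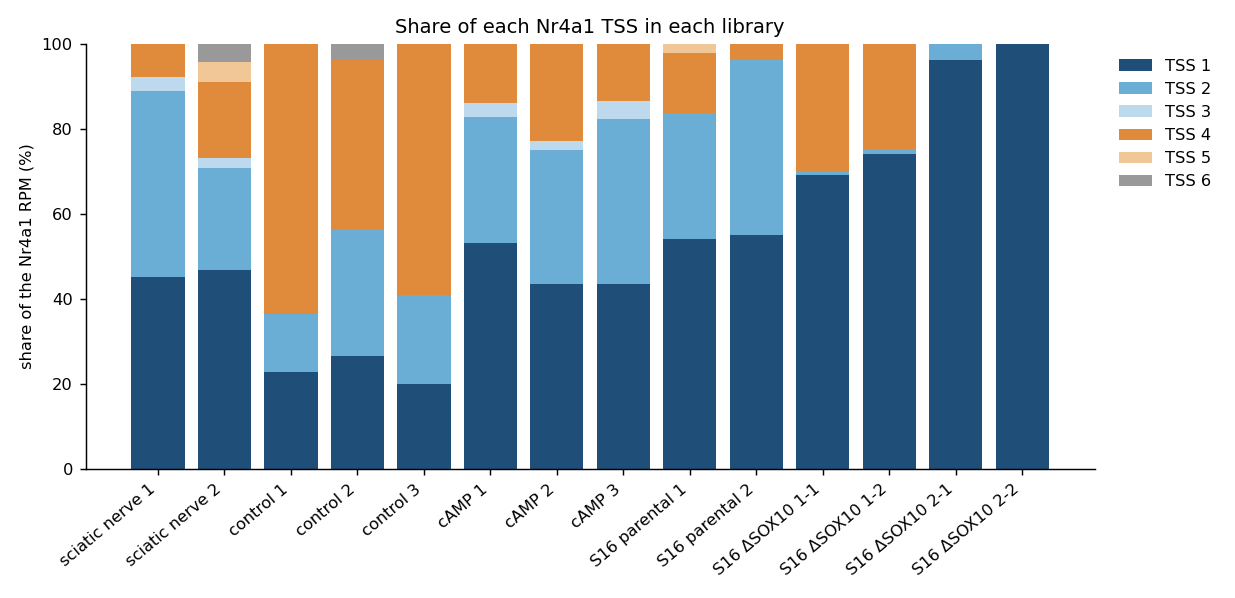
Share of the Nr4a1 RPM (%) at each of its 6 TSSs in the 14 libraries, stacked to 100%. TSS 4 takes 40.2 to 63.5% in controls and 13.5 to 22.8% with cAMP, and TSS 2 takes 29.6 and 41.2% in parental S16 cells and at most 3.88% in ΔSOX10 clones.

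Etv1 was nearly silent in control cells and present with cAMP. Its reads in all TSSs numbered 2, 2 and 1 in the controls and 2466, 954 and 854 with cAMP, or 30.8, 17 and 12.5 RPM. The mean of the treated libraries was 20.1 ± 9.55 RPM. Because the controls held 5 reads in all, the ratio of the pooled reads per library total, 728, has a wide 95% counting interval (312 to 2244, exact). This interval and the counting intervals below treat each read as independent. They leave out the spread between libraries, are too narrow for that reason, and are no test.

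Etv1 TSS 3, the start 80962 bp downstream, took most of these reads. It held 26.1, 14 and 11.4 RPM with cAMP, and 0, 1 and 1 reads in the controls (pooled ratio 1553, interval 430 to 12820). TSS 1 held 256, 81 and 78 reads with cAMP and 2, 1 and 0 reads in controls (pooled ratio 118, 40 to 574). TSS 2 was read in 2 of 3 treated libraries (1.59 and 1.57 RPM) and in no control. In nerve the TSS 3 values were 30.1 and 20.2 RPM, those of TSS 1 were 6.39 and 5.65 RPM, and TSS 2 had 4.85 RPM in one nerve and no read in the other.

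The share of Etv1 reads at TSS 3 was thus 84.5, 82.3 and 90.9% with cAMP and 72.8 and 78.1% in nerve, so that most Etv1 reads began at the same place in both settings. Shares in controls rest on 1 or 2 reads and are not given.

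Cited2 moved the other way. Its single TSS had 460, 459 and 486 RPM in control 1 to 3 and 14.3, 26.7 and 18.9 RPM in cAMP 1 to 3, 23.5-fold lower, with 1140 reads in the lowest treated library. Sciatic nerve was lower still, at 7.29 and 8.1 RPM. The controls were tightly grouped, with an SD of 15 around 468 RPM.

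The ΔSOX10 comparison asks which TSSs depend on SOX10 in S16 cells. The Sox10 TSS itself had 90.7 and 77.5 RPM in parental 1 and 2 and 0.0255, 0.0254, 0 and 0.114 RPM (1, 1, 0 and 4 reads) in clones 1-1, 1-2, 2-1 and 2-2, so that every clone was far below both parental libraries. The guides cut the coding sequence and not this TSS, so these reads do not check the edit itself.

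Among the members, Cited2 rose and Nr4a1 fell in the clones, and Etv1 was not detected in any S16 library. Of the 10 TSSs, 4 passed the filter (Cited2 TSS 1 and Nr4a1 TSSs 1, 2 and 4), and 3 of these had groups without overlap, beside 29.4% of all 3875 TSSs tested. Limma called 1 higher and 2 lower, beside 1.65% called higher and 6.55% called lower over all TSSs. Of the 2 lower, Nr4a1 TSS 2 passed the filter only through the parental libraries, where it is high. The call of Nr4a1 TSS 1 stood close to the threshold, and nothing is read from these counts. Scaling by TMM moved the median difference of all TSSs up by 0.13 on the log2 scale, and the direction of the 4 TSSs was the same under TMM and median-ratio scaling, with -2.26 in place of -2.38 for Nr4a1 TSS 1.

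Cited2 had 79.9 and 73.6 RPM in parental 1 and 2 and 721, 388, 565 and 621 RPM in clones 1-1, 1-2, 2-1 and 2-2. Each clone was above both parental libraries, and the 4 clones together spread over a range of 388 to 721 RPM. The mean rose from 76.8 ± 4.45 (n = 2) to 573.9 ± 140 RPM (n = 4), 7.48-fold, with a log2 difference of RPM + 1 of 2.85 ± 0.24 (SE) and an adjusted p of 0.000127 by limma. The level in the clones overlapped that of control primary cells.

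Nr4a1 TSS 2 showed the largest fall of the members. It had 14.8 and 18.5 RPM in the parental libraries and 0.0764, 0.0254, 0.109 and 0 RPM in the clones, which stand for 3, 1, 4 and 0 reads. The ratio of pooled reads, about 1369 (the parental RPM values are rounded to 3 digits) against 8, was 310. Its counting interval was 157 to 721 (exact) and leaves out the spread between libraries. The log2 difference of RPM + 1 was -4.06 ± 0.37 (SE), with an adjusted p of 0.000175 by limma. TSS 2 passed the filter on low values only through the 2 parental libraries, where it is high, so that a TSS like it had to differ between the groups to be tested. Without a filter the adjusted p was 0.000299 by limma, and without parental 1 or parental 2 it failed the filter and had no test. Reads at TSS 2 in the clones were at or near the limit of 3 reads that a count of 0 allows.

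Nr4a1 TSS 1 was lower but still read in every clone. It had 27 and 24.7 RPM in the parental libraries and 5.07, 1.53, 2.71 and 11.3 RPM in the clones, 5.01-fold lower, with a log2 difference of -2.38 ± 0.6 (SE; limma, adjusted p = 0.0438). The clones differed among themselves by more than the parental samples, from 60 reads in clone 1-2 to 397 in clone 2-2. The call stood close to the threshold and did not hold without parental 1, parental 2, or clone 1-1, 1-2 or 2-1 (adjusted p of 0.122, 0.0978, 0.068, 0.0672 and 0.0805), while it held without clone 2-2 (0.00737).

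Nr4a1 TSS 4 had 7.12 and 1.71 RPM in the parental libraries and 2.19, 0.508, 0 and 0 RPM in the clones. The groups overlapped, and the log2 difference of -1.66 had a 95% interval of -3.09 to -0.24 and an adjusted p of 0.173 by limma over all TSSs, which did not pass. Clones 1-1 and 1-2 had reads at TSS 4 (86 and 20), and clones 2-1 and 2-2 had none. Nr4a1 TSSs 3 and 6 had no read in any S16 library, and TSS 5 had 45 reads in parental 1 alone.

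Within Nr4a1, the share of TSS 2 was 29.6 and 41.2% in parental cells and 1.04, 1.23, 3.88 and 0% in the clones, whereas the share of TSS 1 went from 54.1 and 55% to 69.1, 74.1, 96.1 and 100%. Whether the TSSs changed by unequal amounts was tested with diffSplice, and Nr4a1 did not pass (adjusted p = 0.196 by limma's Simes method over 417 genes, of which 5.04% were called). On the log2 scale, TSS 2 stood 2.04 below the rest of the gene (log2 difference -2.04, adjusted p = 0.12 by limma). TSS 2 passed the filter for this test only through the parental libraries, where it is high. A TSS like it had to differ between the groups to enter, so nothing is read from its direction. Over the alternatives the adjusted p ranged from 0.0219, without a filter, to 0.997. It was 0.846 and 0.997 without parental 1 or 2, where TSS 2 no longer entered.

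Etv1 had no read at any of its 3 TSSs in the 2 parental libraries and the 4 clones. By counting error alone, this allows at most 0.0678 to 0.0855 RPM per library and TSS. A change of Etv1 with loss of SOX10 was therefore not detectable in this line, and no fold is given. Etv1 TSS 3 and Nr4a1 TSS 2 are the members that lie within a SOX10 peak of nerve, and the S16 cells give a value for Nr4a1 TSS 2 alone.

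The comparisons can be set side by side for the 4 TSSs tested in both. Cited2 had a difference of -4.53 with cAMP and 2.85 with loss of SOX10. Nr4a1 TSS 1 had 3.08 and -2.38, TSS 2 had 2.74 and -4.06, and TSS 4 had 0.43 and -1.66, all as differences of log2(RPM + 1). The groups of TSS 4 overlapped in both comparisons. Nothing is read from the signs, since those with cAMP were used in choosing the genes and 3 of the 4 TSSs belong to Nr4a1.

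**Figure D4:**
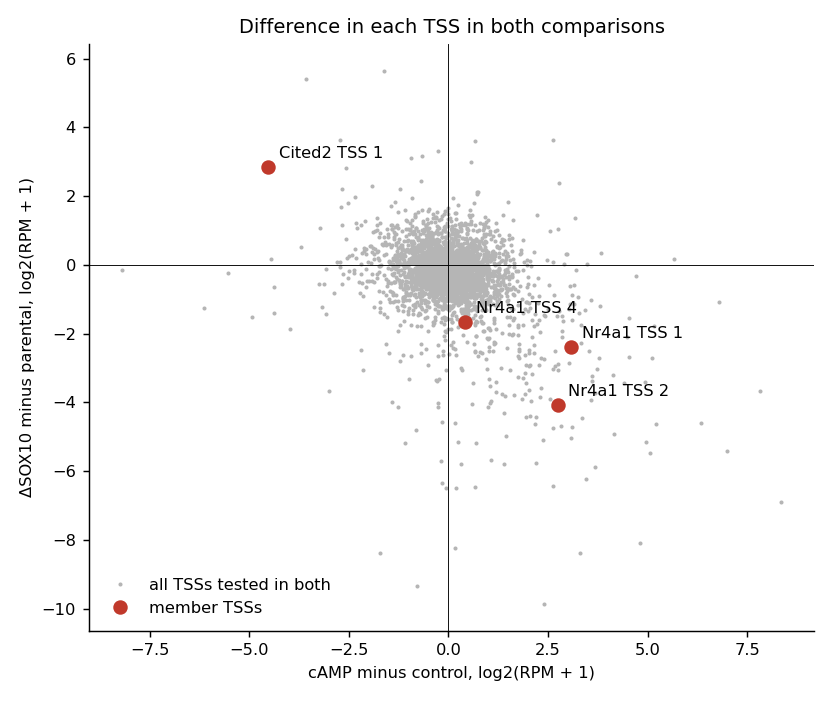
Difference of log2(RPM + 1) between cAMP and control (horizontal) and between ΔSOX10 and parental S16 cells (vertical) for the 3741 TSSs tested in both, with the 4 member TSSs in red. Cited2 TSS 1 lies at -4.53 and 2.85, above and to the left of most TSSs, and the Nr4a1 TSSs lie below 0 on the vertical axis.

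Genes whose summed level ran most like each member over the 14 libraries were looked up among 2486 genes, by Pearson's r of log2(RPM + 1). For Nr4a1 they were Sorbs3 (r = 0.969), Inka1 (0.967) and Ndrg2 (0.958). For Etv1 they were Pllp (0.981), which encodes the myelin membrane protein plasmolipin, Smtn (0.976) and Dusp15 (0.968). For Cited2 they were Gadd45b (0.969), a stress-response gene, Tln1 (0.932), encoding talin, and Golga2 (0.922), encoding a Golgi matrix protein. The points share 5 groups, so each r mostly restates group levels. Pllp, for example, had group means of 991 RPM in nerve, 1.3 in control, 176 in cAMP, 0.0389 in parental and 0 in ΔSOX10 libraries, and Gadd45b had means of 63.5, 528, 87.2, 246 and 422 RPM in nerve, control, cAMP, parental and ΔSOX10 libraries. Among the members themselves, r was -0.91 between Etv1 and Cited2, -0.72 between Nr4a1 and Cited2 and 0.69 between Nr4a1 and Etv1. Spearman's rho for the same pairs was -0.76, -0.71 and 0.89. The control and cAMP values that chose the members enter each of these, so their signs are fixed in part by that choice. Nothing is read from them.

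Other genes of the pathways around the members were read from 5 lists, each gene by its most used TSS in nerve. Of the 168 genes listed, 47 had a TSS in the table. With cAMP, 45 could be tested, and 9 rose and 15 fell, beside 13.5% of 2832 genes called higher and 13.9% called lower by their main TSS. In S16 cells, 44 could be tested, and 7 rose and 3 fell, beside 1.99% higher and 5.5% lower of 2763 genes. The lists were chosen with earlier results of these data known, so these counts and those of each list below are a description. Adjusted p values of listed genes are from limma over all TSSs.

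Of the 48 genes of the cAMP and CREB list, only 5 had a TSS in the table, and these 5 were tested. With cAMP, 1 of the 5 was called, Pkig, an inhibitor of protein kinase A, which rose from 54.3 ± 5.82 to 102.7 ± 12.9 RPM (log2 difference 0.9, adjusted p = 0.000223). The other 4, Crem, Crtc1, Akap11 and Akap13, did not pass, and Crem, a CREB-family factor, had 11.5 ± 0.711 RPM in control and 10.5 ± 0.619 with cAMP. The median log2 difference of the 5 was -0.07, beside -0.03 over all main TSSs. In S16 cells none of the 5 was called by limma (median -0.16, beside -0.17 over all main TSSs), and 0 had an unadjusted p under 0.05 or were called by edgeR or DESeq2.

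Immediate early and stress response regulators, the class to which Nr4a1 belongs, moved in both directions. With cAMP, 5 of 21 rose and 10 fell, with a median log2 difference of -0.85. The largest rises were those of Dusp6, an ERK phosphatase, from 6.54 ± 2.17 to 88.5 ± 18 RPM (adjusted p = 1.41e-09), Id2 (62.1 ± 5.45 to 571.4 ± 43.5, adjusted p = 2.1e-15) and Id4 (138.8 ± 8.19 to 337.2 ± 22.8, adjusted p = 4.13e-09), both inhibitors of helix-loop-helix factors. Jun, a driver of the immature Schwann cell state, fell from 540.5 ± 65.5 to 60.8 ± 6.21 RPM (adjusted p = 7.13e-15), Klf2 from 60.7 ± 3.53 to 8.74 ± 3.21 (adjusted p = 1.84e-07) and Gadd45b from 520.7 ± 38.6 to 86.3 ± 8.38 (adjusted p = 3.79e-14).

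In the ΔSOX10 clones, 7 of 20 of these regulators rose and none fell, with a median of 0.69. Gadd45g rose from 110.6 ± 19 to 401.5 ± 115 RPM (adjusted p = 0.00377), Junb from 3.74 ± 0.395 to 13.2 ± 4.62 (adjusted p = 0.0483) and Ddit3 from 46.8 ± 3.07 to 138.6 ± 53 (adjusted p = 0.0159). The call of Junb held in 1 of 6 fits with a library left out, that without clone 1-1 (limma, adjusted p of 0.0393 to 0.294), while those of Gadd45g and Ddit3 held in all 6. No fall had an unadjusted p under 0.05 by limma, and edgeR and DESeq2 called 0 falls. Of 16 alternatives, 1 gave a called fall, a fit with a library left out.

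Of the ETS factors and ERK feedback genes around Etv1, 7 could be tested in each comparison. With cAMP, Ets1 fell from 30.2 ± 12.7 to 4.67 ± 2.73 RPM (adjusted p = 7.99e-05) and the kinase gene Map2k1 from 118.8 ± 3.83 to 39.7 ± 6.38 (adjusted p = 2.31e-07), and none rose (0 at an unadjusted p under 0.05 by limma, and 0 with edgeR or DESeq2), with a list median of -0.38. In S16 cells none of the 7 was called by limma (median -0.08), where 1 higher and 1 lower had an unadjusted p under 0.05, and edgeR and DESeq2 called 0.

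Around Cited2, 6 genes of the CBP and hypoxia list could be tested. Ldha, lactate dehydrogenase A, rose with cAMP from 2079 ± 53.8 to 3636 ± 232 RPM (adjusted p = 1.06e-10), and Higd1a (194.3 ± 16 to 114.4 ± 27.6, adjusted p = 0.000455) and Bnip3l (200 ± 4.58 to 122.5 ± 20.6, adjusted p = 0.000205) fell. In the clones Ldha alone was called and fell, from 3955 ± 332 to 1439 ± 235 RPM (adjusted p = 0.00164). The list medians were -0.29 with cAMP and -0.32 in S16 cells.

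Among Schwann cell lineage regulators, 9 could be tested in each comparison, and 4 rose and 2 fell with cAMP (median 1.09). Egr2, which drives myelination, rose from 0.0109 ± 0.00953 to 34 ± 1.33 RPM (adjusted p = 1.65e-08), beside Id2 and Id4 above, and Snai2 fell from 58.5 ± 18.1 to 2.54 ± 2.82 (adjusted p = 5.64e-07), as did Jun. Egr2, counted among the 4, passed the filter only through the cAMP libraries, where it is high. A TSS like it had to differ between the groups to be tested. In the clones, Id2 rose from 24.2 ± 3.04 to 65.7 ± 19.8 RPM (adjusted p = 0.0308), and Snai2 fell from 218.5 ± 4.86 to 83.8 ± 21.1 (adjusted p = 0.00837), with Sox10 as the other fall (median -0.58). Id2 did not hold without parental 1, parental 2, or clone 1-1, 1-2 or 2-2 (limma, adjusted p of 0.0576, 0.16, 0.0538, 0.0659 and 0.0575) and held without clone 2-1 (0.00714). Snai2 held in all 6 such fits, and Sox10, which passed the filter only through the parental libraries, could not be tested without either of them. Jun, Id2 and Id4 are in 2 lists.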

How the data were processed

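The authors trimmed Tn5Prime reads with cutadapt 1.14, mapped them with STAR 2.5.2a to rn5, clustered read starts with Paraclu and counted them with featureCounts (Subread 1.6.1). The deposited values are RPM per TSS and library, and 4 further columns with the authors' fold changes and FDR values were not used. In 4 S16 libraries, 8.59 to 9.35% of the values above 0 are rounded to 3 digits, and their reads are approximate. All other RPM values under 20000 reads were whole multiples of 1 read (100% within 0.01), which gave library totals and reads.

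Limma 3.58.1 in R 4.3.3 (linear fit, moderated with a trend) was run on log2(RPM + 1) in the 6 libraries of a comparison, keeping TSSs with over 1 RPM in 2 or more of them, with Benjamini-Hochberg adjustment over all TSSs tested and a threshold of 0.05, and TSS use with diffSplice. P-values measure the spread between these samples, which for parental S16 cells may be technical. The ΔSOX10 clones were fitted as independent samples, although some share a guide RNA. Log2 differences of low TSSs depend on the pseudocount. The tests were tried on simulated data. Recovered reads were tested with edgeR 4.0.16 and with DESeq2 1.42.0, and further alternatives were other scalings, filters and pseudocounts, 14 libraries in 1 model and replicates left out.

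The members and gene lists were chosen with earlier results of these data known. Named are all member TSSs, the 3 genes most correlated with each member, and up to 3 called genes with the largest difference per list, comparison and direction. Promoter sequences are from RefSeq (GRCr8). One further cell type marker is not reported here.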

Additional observations from a re-analysis of the deposited data

How the results depend on the processing

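In S16 cells, Cited2 TSS 1 stayed called under 15 of 15 alternatives (log2 difference 2.73 to 3.03) and Nr4a1 TSS 2 under 13 of 13 (-8.29 to -2.09). Nr4a1 TSS 2 gave no value without either parental library, where it failed the filter, nor did TSS 4 at a mean of at least 5 RPM. Nr4a1 TSS 1 kept its direction but not its call with a pseudocount of 0.1 (-2.68, adjusted p = 0.0853), without a filter (-2.38, 0.0748) and with edgeR (-2.33, 0.0697), and over the left-out libraries ranged from -2.8 to -2.04. Over its 15 alternatives the adjusted p ranged from 0.000363 to 0.122. Nr4a1 TSS 4 was called only with all 14 libraries in 1 model (-1.66, adjusted p = 0.0487, range 0.0487 to 0.823). TSS use within Nr4a1 passed without a filter (0.0219), with edgeR's diffSpliceDGE (0.0341) and with 14 libraries (0.0427), and left-out libraries gave 0.109 to 0.997. Listed genes called higher in S16 cells numbered 7 and ranged from 4 (without parental 2) to 7 over left-out libraries, and those called lower numbered 3 and ranged from 2 to 5 (without clone 1-1). The counts of listed genes with cAMP stayed within 8 to 10 higher and 14 to 16 lower.

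The cAMP differences of low TSSs followed the pseudocount. With 0.1 and 5 they were 4.00 and 0.45 for Etv1 TSS 1, 2.71 and 0.26 for TSS 2, 7.18 and 2.09 for TSS 3, and 6.28 and 1.36 for Nr4a1 TSS 3, and Nr4a1 TSS 1 was 2.76 with 5. Nr4a1 TSS 6 reversed, to 0.092, without control 2, the only control with reads there, and ranged from -0.70 to 0.092 over left-out libraries. The reads of TSSs near 3 counts limit what can be said of them.

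Whether control and cAMP replicate numbers pair the samples was not settled. Deviations of same-numbered libraries correlated at 0.0258, 0.00537 and 0.035, and those of other-numbered libraries at -0.048 to 0.022. With the replicate number as a block, 9 listed genes were called higher and 16 lower, beside 9 and 15 without it.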
